A study of Homo sapiens
Mus musculus with 2 samples.

Results

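Glycolysis turns glucose into pyruvate and lactate in the cytosol, and dividing lymphocytes are known for running it at a high rate even in oxygen. Several of its steps are catalysed by isoenzymes from different genes, so a cell can be described both by how much glycolytic mRNA it holds and by which isoform it uses. The genes described here are the human and mouse forms of 15 such genes, 30 genes in all. They are the glucose transporter SLC2A1, the hexokinases HK1 and HK2, the isomerase GPI, the phosphofructokinases PFKP and PFKL, the enzymes ALDOA, TPI1, GAPDH, PGK1, PGAM1, ENO1 and PKM, and the lactate dehydrogenase subunits LDHA and LDHB. The genes were listed by identifier and not by a threshold on their values. Of the 30, 29 had a row in each deposited table, out of 24990 genes in the table for 150 cells per µl and 28377 in that for 300 cells per µl, or 29259 genes in either. Mouse Ldhb had no row in either table and was counted as 0 UMIs (unique molecular identifiers, each standing for 1 captured mRNA molecule).

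The data are 2 Drop-seq libraries, a droplet method that tags the 3′ end of each mRNA, made from 1 mixture in equal parts of 4 lymphocyte lines, with no treatment given in the labels. Jurkat is a human CD4+ T cell leukaemia line, TALL-104 a human CD8+ T cell line, EL4 a mouse T cell lymphoma line and IVA12 a mouse B cell line. The mixture was encapsulated at 150 cells per µl (group DropSeq_150) and at 300 cells per µl (group DropSeq_300), with 1 library each and no replicate. Both libraries hold the same lines, so differences between lines can be read in each of them, whereas a concentration and its library cannot be told apart.

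Cells were the barcodes with at least 1000 UMIs of which at least 90% came from 1 species. There were 405 human cells (87 and 318 in the libraries of 150 and 300 cells per µl) and 770 mouse cells. The libraries shared 1 barcode and 0 cells. All 405 human cells fell in clusters with Jurkat markers. Of these cells, 343 had 0 UMIs of the 9 cytotoxic markers of TALL-104, 2 had 3 or more, and GZMB, GNLY and IL2RA were at 0 in both libraries. No TALL-104-like cluster was found, so the human values are those of Jurkat-like cells, with 616525 and 1325144 human UMIs. Mouse cells were clustered without the glycolysis genes, so that the classes do not depend on them. The 391 EL4-like cells (42 and 349, with 588555 and 3125560 mouse UMIs) held T cell markers at 2870 and 3066 CPM (UMIs per 1000000 UMIs of that species) and B cell markers at 32.3 and 60.5 CPM. The 277 IVA12-like cells (34 and 243, with 459514 and 2183168 mouse UMIs) held B cell markers at 5932 and 5404 CPM and T cell markers at 32.6 and 51.8 CPM. Among the B cell markers Ighm and Igkc, and among the T cell markers Trbc2, had no UMI in these cells, and Cd79a and Pax5 had none at 150 cells per µl. The remaining 102 mouse cells fell in clusters that were shallow by their median and were left unnamed. Their median depth was 1263 and 1320 UMIs, and the deepest of them held 2540 and 25083. Median depth was 6383 and 3714 UMIs in Jurkat-like cells, 12429 and 8057 in EL4-like cells, and 14066 and 7807 in IVA12-like cells, and UMIs of the other species made up 0.384% to 3.64% of a class.

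The 15 genes together took the largest share of the transcriptome in Jurkat-like cells and the smallest in IVA12-like cells. Their summed UMIs made up 1.27% (95% exact Poisson interval 1.25 to 1.30) of human UMIs in Jurkat-like cells at 150 cells per µl and 1.52% (1.496 to 1.538) at 300. In EL4-like cells they made up 0.879% (0.855 to 0.903) and 1.02% (1.01 to 1.03) of mouse UMIs. In IVA12-like cells the shares were 0.574% (0.552 to 0.596) and 0.628% (0.617 to 0.638). The order of the 3 classes was therefore the same in both libraries, and no 2 of the intervals within a library overlapped. These intervals, and all others given here, cover counting error only and not the spread between cultures. Levels of different genes are compared as UMIs without correction for length, since a 3′ tag counts 1 UMI per molecule whatever the length of the mRNA. The lead of Jurkat-like over EL4-like cells rested on GAPDH and LDHB. In Jurkat-like cells GAPDH gave 27.2% and 31.1% of the summed UMIs and LDHB 16.8% and 14.75%. In EL4-like cells Gapdh gave 13.3% and 13.2%, and Ldhb, without a row, gave 0. With both genes left out, the sum was higher in EL4-like than in Jurkat-like cells in both libraries.

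The order held within the classes as well. The 3 clusters of Jurkat-like cells held the 15 genes at 1.26% to 1.28% of human UMIs at 150 cells per µl and at 1.47% to 1.54% at 300. The 2 clusters of EL4-like cells held them at 0.864% and 0.890%, then at 1.00% and 1.04%. The 2 clusters of IVA12-like cells held them at 0.515% and 0.623%, then at 0.614% and 0.642%. No cluster of one class reached the range of another class in the same library.

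**Figure D1:**
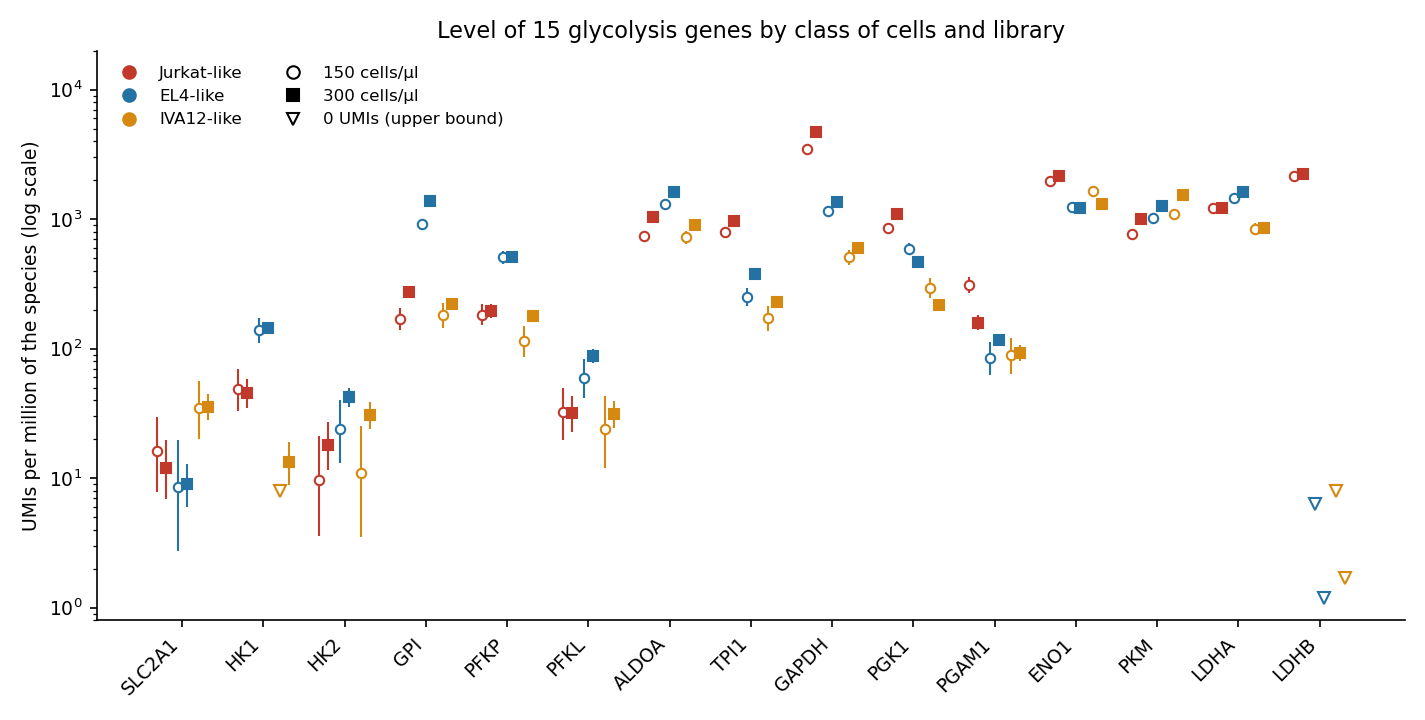
Level of each gene (CPM, log axis) in the 3 classes of cells, with 95% exact Poisson intervals, open circles for 150 and filled squares for 300 cells per µl, and triangles at the upper bound where no UMI was found. GAPDH is the highest point, at 3465 and 4712 CPM in Jurkat-like cells, Hk1 is at 0 and 13.3 CPM in IVA12-like cells, and Ldhb is at 0 in both mouse classes.

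For 12 of the 14 genes other than LDHB the 3 classes stood in the same order in both libraries. LDHB has no such order, since its mouse form was at 0 in both mouse classes. Jurkat-like cells were highest for 6 genes (GAPDH, PGK1, TPI1, PGAM1, ENO1 and LDHB), EL4-like cells for 7 (HK1, HK2, GPI, PFKP, PFKL, ALDOA and LDHA) and IVA12-like cells for 2 (SLC2A1 and PKM). The highest class was apart from the next, by intervals that did not overlap in either library, for 11 genes. The exceptions were PKM, HK2, PFKL and SLC2A1. These counts were not made over all genes, so they do not set the listed genes apart from others. Between the mouse lines alone, 58.1% of all mouse genes tested differed (adjusted p under 0.05, edgeR). The order was not the same in both libraries for PGAM1 and GPI, whose 2 lowest classes changed places. A human and a mouse gene are read against different annotations and different sets of near-identical pseudogenes, which are numerous for GAPDH, PGK1, TPI1, LDHA and ENO1, and the part of this in the species differences was not tested.

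Most of the glycolytic mRNA in each class came from the later steps of the pathway. GAPDH, which makes the first high-energy phosphate intermediate of glycolysis, gave 27.2% and 31.1% of the 15 genes' UMIs in Jurkat-like cells and was the gene with rank 16 and rank 5 by UMIs among all human genes there. In EL4-like cells it gave 13.3% and 13.2%, behind Ldha (16.6% and 15.9%). In IVA12-like cells it gave 8.84% and 9.57%, and Eno1 (28.8% and 21.0%) and Pkm (19.0% and 24.6%) were the leading genes. The leading gene was thus GAPDH in Jurkat-like cells, Ldha in EL4-like cells, and Eno1 at 150 and Pkm at 300 cells per µl in IVA12-like cells. At the other end SLC2A1 gave 0.0796% to 0.607% of the summed UMIs, and HK2 and PFKL were also among the lowest genes of every class and library. In IVA12-like cells Slc2a1 (0.607% and 0.569%) lay above Hk1 (0% and 0.212%), Hk2 (0.190% and 0.489%) and Pfkl (0.417% and 0.496%).

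The glucose transporter gene of the list was higher in IVA12-like than in EL4-like cells. SLC2A1 encodes GLUT1, the widespread basal glucose transporter, and its mouse form is mm10_ENSMUSG00000028645. It was at 34.8 and 35.7 CPM there (16 and 78 UMIs) and at 8.50 and 8.96 CPM in EL4-like cells (5 and 28 UMIs), with no overlap of the values. The fitted difference was 3.88-fold (log2 difference 1.96 ± 0.33 (SE), adjusted p = 9.56e-09, edgeR quasi-likelihood test with a threshold of 0.05). With DESeq2 the log2 difference was 2.01 and the adjusted p 0.0689. After thinning every cell to 2000 UMIs, at 300 cells per µl 9.46% of IVA12-like cells (5.95 to 14.1) and 2.07% of EL4-like cells (0.837 to 4.22) had an Slc2a1 UMI, against 0.709% of human cells (up to 2.54). Jurkat-like cells held SLC2A1 at 16.2 and 12.1 CPM (10 and 16 UMIs).

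EL4-like cells held instead Slc2a3, which encodes GLUT3, a transporter of high glucose affinity. Slc2a3 was at 129 and 293 CPM in EL4-like cells (76 and 915 UMIs) and at 2.18 and 12.4 CPM in IVA12-like cells (1 and 27 UMIs), 1.69% and 4.23% of the EL4-like level. Its log2 difference was −4.68 ± 0.23 (SE; adjusted p = 1.04e-89, edgeR), with −5.89 at 150 and −4.57 at 300 cells per µl. Slc2a1 was 6.17% (2.03 to 13.8) and 2.97% (1.98 to 4.26) of the UMIs of these 2 transporters in EL4-like cells. In IVA12-like cells it was 94.1% (71.3 to 99.9) and 74.3% (64.8 to 82.3). Summed, the 2 transporters stood at 138 and 302 CPM in EL4-like, 37.0 and 48.1 CPM in IVA12-like, and 19.5 and 20.4 CPM in Jurkat-like cells.

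Hexokinases trap glucose in the cell as glucose 6-phosphate. HK1 is the broadly expressed form and HK2 the form known to be induced in many tumours and activated lymphocytes. Jurkat-like and EL4-like cells used mainly HK1, while IVA12-like cells held little Hk1 and had more Hk2 than Hk1. HK1 was 83.3% (67.2 to 93.6, 36 UMIs) and 71.4% (60.5 to 80.8, 84 UMIs) of HK1 and HK2 UMIs in Jurkat-like cells, and 85.4% (76.7 to 91.8, 96 UMIs) and 77.2% (73.6 to 80.6, 580 UMIs) in EL4-like cells. In IVA12-like cells it was 0 of 5 UMIs at 150 cells per µl, which sets no useful limit, and 30.2% (21.2 to 40.4, 96 UMIs) at 300. The interval at 300 cells per µl lay below those of both other classes.

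The level of Hk1 was 139 and 143 CPM in EL4-like cells (82 and 448 UMIs) and 0 and 13.3 CPM in IVA12-like cells (0 and 29 UMIs). Both IVA12-like values were thus below both EL4-like values. At 300 cells per µl Hk1 was 10.8-fold lower, and at 150 cells per µl at least 21.3-fold lower, taking 3 UMIs per library as the floor. The fitted log2 difference was −3.78 ± 0.25 (SE; adjusted p = 2.52e-48, edgeR), a size that depends on the prior count because of the 0. With DESeq2 the log2 difference was −5.51 and the adjusted p 0.0401. Free RNA can place UMIs of one line in cells of another. The T cell markers in IVA12-like cells stood at 1.14% and 1.69% of their EL4-like level, and Hk1 at 0% and 9.27%. After thinning, 4 of 222 IVA12-like cells at 300 cells per µl had an Hk1 UMI (1.80%, 0.493 to 4.55), against 2 of 282 human cells (0.709%, up to 2.54), with overlapping intervals. Without thinning the shares were 10.7% (7.11 to 15.3) and 1.26% (up to 3.19), with a median of 7807 and 3714 UMIs per cell. In EL4-like cells 23.4% (19.0 to 28.3) of thinned and 64.2% of all cells had an Hk1 UMI. The part of free RNA in the Hk1 of IVA12-like cells was not tested.

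Hk2 was rare in every class. It stood at 9.73 and 18.1 CPM in Jurkat-like, 23.8 and 42.2 CPM in EL4-like, and 10.9 and 30.7 CPM in IVA12-like cells. The libraries overlapped between the mouse classes, since the IVA12-like value at 300 cells per µl exceeded the EL4-like value at 150. Within each library Hk2 was lower in IVA12-like cells (log2 ratio −1.13 at 150 and −0.46 at 300 cells per µl), and it passed the threshold there (log2 difference −0.57 ± 0.25 (SE), adjusted p = 0.0404, edgeR). That call was lost under 7 of the alternatives, with adjusted p from 0.0534 (library totals) to 0.613 (DESeq2).

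GPI, which converts glucose 6-phosphate to fructose 6-phosphate, and the phosphofructokinases, which commit the sugar to glycolysis, were EL4-high. Gpi1 (mm10_ENSMUSG00000036427) was at 926 and 1383 CPM in EL4-like cells (545 and 4322 UMIs) and at 181 and 223 CPM in IVA12-like cells (83 and 486 UMIs). GPI was at 170 and 272 CPM in Jurkat-like cells. The EL4-like values lay far above the other 4, and the mouse difference was 6.02-fold (log2 difference −2.59 ± 0.11 (SE), adjusted p = 1.68e-119, edgeR). In thinned cells, 76.2% and 93.2% of EL4-like cells and 33.3% and 36.0% of IVA12-like cells had a Gpi1 UMI, with 1.22% and 3.90% of human cells.

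Pfkp, the platelet form of phosphofructokinase, was at 510 and 509 CPM in EL4-like cells and at 115 and 179 CPM in IVA12-like cells (log2 difference −1.73 ± 0.12 (SE), adjusted p = 1.33e-43, edgeR). Pfkl, the liver form, was at 59.5 and 88.0 CPM against 23.9 and 31.2 CPM (log2 difference −1.50 ± 0.22 (SE), adjusted p = 4.98e-11, edgeR). For neither gene did the values of the 2 classes overlap. The counting intervals of Pfkl did overlap at 150 cells per µl (41.42 to 82.71 CPM in EL4-like and 11.95 to 42.83 CPM in IVA12-like cells). With DESeq2 Pfkl had an adjusted p of 0.0513. Jurkat-like cells held PFKP at 183 and 197 CPM and PFKL at 32.4 and 31.7 CPM. Of the 2 forms PFKP took 82.8% to 89.6% in every class and library, with overlapping intervals between the classes within each library. With the muscle form PFKM counted too, IVA12-like cells stood apart in both libraries. At 300 cells per µl Pfkm took 10% (7.54 to 12.9) of the UMIs there, 2.97% (2.25 to 3.83) in EL4-like and 1.30% (0.356 to 3.30) in Jurkat-like cells. At 150 cells per µl these shares were 11.1% (4.92 to 20.7), 1.47% (0.479 to 3.40) and 0.746% (0.0189 to 4.09). The level of Pfkm itself, 8.50 and 18.2 CPM in EL4-like and 17.4 and 23.4 CPM in IVA12-like cells, did not pass (log2 difference 0.41, adjusted p = 0.275, edgeR), beside the lower Pfkp and Pfkl of IVA12-like cells.

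Aldolase and triose phosphate isomerase, which split the sugar into 3-carbon units and interconvert them, were also lower in IVA12-like than in EL4-like cells. Aldoa was at 1312 and 1619 CPM in EL4-like cells and 722 and 904 CPM in IVA12-like cells (log2 difference −0.89 ± 0.09 (SE), adjusted p = 9.65e-24, edgeR). ALDOA in Jurkat-like cells was at 743 and 1037 CPM, between the 2 mouse classes in each library. At 150 cells per µl its interval (676.4 to 814.1) overlapped that of IVA12-like cells (646.9 to 804.6). Tpi1 was at 251 and 379 CPM in EL4-like and 172 and 228 CPM in IVA12-like cells (log2 difference −0.72 ± 0.12 (SE), adjusted p = 2.20e-08, edgeR). The EL4-like value was the higher in each library, and all 4 mouse values were below the 795 and 976 CPM of TPI1 in Jurkat-like cells.

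GAPDH and PGK1, a phosphoglycerate kinase that makes ATP in the pathway, stood in the order Jurkat-like, EL4-like, IVA12-like. GAPDH was at 3465 and 4712 CPM in Jurkat-like cells, Gapdh at 1166 and 1350 CPM in EL4-like cells and at 507 and 600 CPM in IVA12-like cells. The 3 classes did not overlap, and the mouse difference was 2.34-fold (log2 difference −1.23 ± 0.09 (SE), adjusted p = 2.45e-38, edgeR). PGK1 was at 852 and 1091 CPM in Jurkat-like cells, and Pgk1 at 588 and 467 CPM in EL4-like and 296 and 218 CPM in IVA12-like cells. Here too no values overlapped, and the mouse difference was 2.14-fold (log2 difference −1.10 ± 0.11 (SE), adjusted p = 5.00e-21, edgeR).

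Of the listed genes tested, Pgam1, Eno1 and Pkm were those at which the mouse lines stood closest by fitted log2 difference. PGAM1, a phosphoglycerate mutase, was at 311 and 159 CPM in Jurkat-like, 84.9 and 116 CPM in EL4-like, and 89.2 and 93.0 CPM in IVA12-like cells. Its mouse difference changed sign between the libraries (log2 difference 0.07 at 150 and −0.32 at 300 cells per µl) and did not pass (adjusted p = 0.183, edgeR). Eno1, the main enolase, was at 1245 and 1225 CPM in EL4-like cells and 1654 and 1320 CPM in IVA12-like cells, higher in the latter in both libraries (log2 ratio 0.41 and 0.11). The difference was small and passed (log2 difference 0.19 ± 0.08 (SE), adjusted p = 0.0322, edgeR), but not with DESeq2 (adjusted p = 0.225), without the library term (0.529) or with cells classed by markers alone (0.211). Human ENO1 was at 1985 and 2164 CPM. Pkm, the pyruvate kinase of most dividing cells, was at 1021 and 1273 CPM in EL4-like and 1090 and 1545 CPM in IVA12-like cells (log2 difference 0.16 ± 0.08 (SE), adjusted p = 0.0984, edgeR), and it passed under 3 alternatives, with adjusted p from 0.0117 to 0.0256. PKM was at 762 and 995 CPM in Jurkat-like cells. Its spliced forms share a 3′ end and were counted together.

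IVA12-like cells carried in addition Eno3, the muscle-type enolase. Eno3 was at 305 and 233 CPM there (140 and 508 UMIs) and at 23.8 and 23.0 CPM in EL4-like cells (14 and 72 UMIs), a 10.3-fold difference (log2 difference 3.37 ± 0.18 (SE), adjusted p = 1.18e-74, edgeR). It took 15.5% (13.2 to 18.1) and 14.98% (13.8 to 16.2) of enolase UMIs in IVA12-like cells, 1.87% (1.03 to 3.12) and 1.85% (1.45 to 2.32) in EL4-like cells, and ENO3 took 0.318% (0.0867 to 0.812) and 0.304% (0.139 to 0.577) in Jurkat-like cells. The second enolase form of Jurkat-like cells was instead ENO2, the neuronal type, at 48.7 and 61.1 CPM, or 2.38% and 2.74% of enolase UMIs. Mouse Eno2 had 0 UMIs in EL4-like and 1 and 2 UMIs in IVA12-like cells. Summed, the enolase genes stood at 1269 (1180 to 1364) and 1248 (1210 to 1288) CPM in EL4-like cells. In IVA12-like cells they stood higher, at 1961 (1835 to 2093) and 1553 (1501 to 1606) CPM, with no overlap of the intervals.

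Lactate dehydrogenase, the enzyme that interconverts pyruvate and lactate, is a tetramer of A and B subunits, and the subunit mix differed between the human and the mouse cells. In Jurkat-like cells LDHA (hg19_ENSG00000134333) stood at 1223 CPM (754 UMIs) and 1223 CPM (1620 UMIs), and LDHB (hg19_ENSG00000111716) at 2143 CPM (1321 UMIs) and 2238 CPM (2966 UMIs). LDHA was thus 36.3% (95% Clopper-Pearson interval 34.3 to 38.5) and 35.3% (33.9 to 36.7) of lactate dehydrogenase UMIs, with overlapping intervals in the 2 libraries. LDHB was the more abundant subunit in each of the 3 Jurkat-like clusters in both libraries, where LDHA took 34.6% to 38.8%. In 51 and 82 barcodes of at least 300 but under 1000 UMIs with mostly human UMIs, LDHA took 33.3% (19.6 to 49.5) and 30.1% (19.9 to 42.0).

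Mouse cells held Ldha and no Ldhb. Ldha was at 1456 CPM (857 UMIs) and 1627 CPM (5085 UMIs) in EL4-like cells and at 842 CPM (387 UMIs) and 853 CPM (1863 UMIs) in IVA12-like cells. Against these, 0 UMIs of Ldhb (mm10_ENSMUSG00000030246) allow a share of Ldhb of up to 0.350% and 0.059% in EL4-like cells and up to 0.775% and 0.161% in IVA12-like cells (3 UMIs of the total). The limit assumes that an Ldhb molecule would have been counted. Neither table listed the gene in any barcode, and whether the annotation used for counting held it was not tested. In IVA12-like cells Ldha was 1.89-fold lower than in EL4-like cells (log2 difference −0.92 ± 0.09 (SE), adjusted p = 1.34e-25, edgeR).

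**Figure D2:**
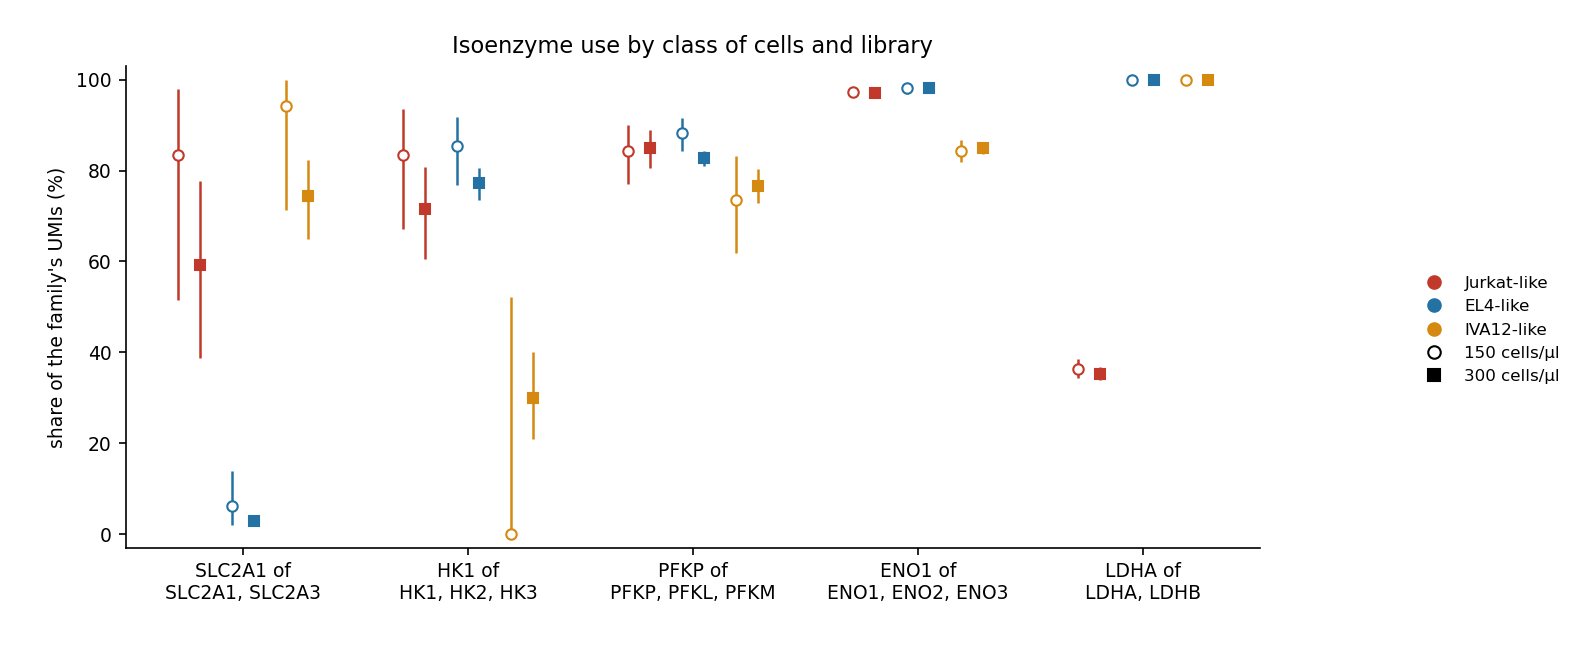
Share of 1 isoform among the UMIs of its gene family, in percent with 95% Clopper-Pearson intervals, by class (colour) and library (open circles 150, filled squares 300 cells per µl). LDHA lies at 36.3% and 35.3% in Jurkat-like cells and at 100% in both mouse classes, and HK1 lies at 29.9% in IVA12-like cells at 300 cells per µl against 77.2% in EL4-like cells.

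**Figure D3:**
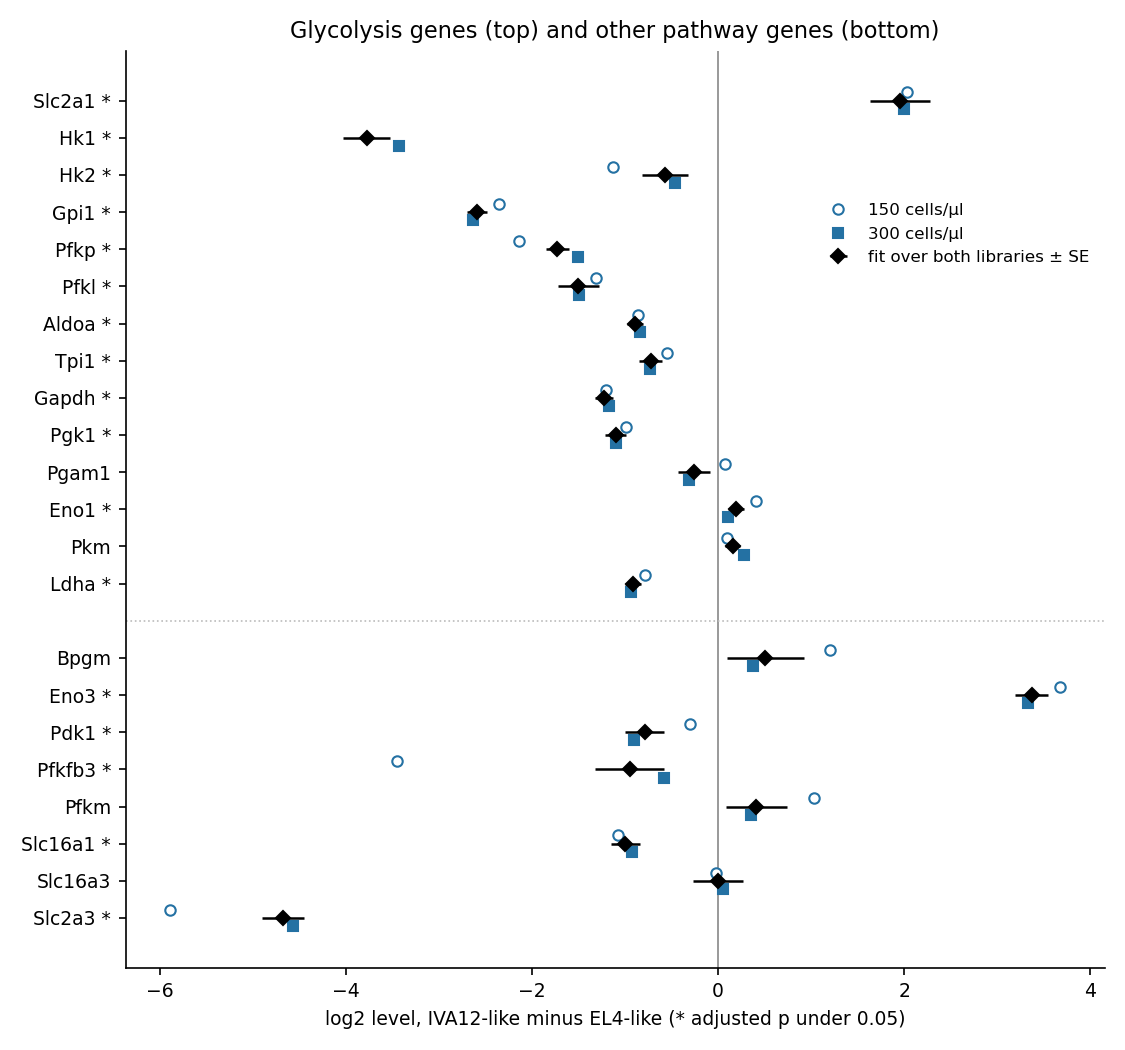
Difference between the mouse lines, as log2 level of IVA12-like minus EL4-like cells, for each glycolysis gene tested (top, in pathway order) and each other pathway gene tested (bottom). Black diamonds are the edgeR fit over both libraries with its SE, open circles and filled squares the libraries of 150 and 300 cells per µl, and a star marks an adjusted p under 0.05. Slc2a1 lies at 1.96 and Eno3 at 3.37, while Hk1 lies at −3.78 and Slc2a3 at −4.68. At 150 cells per µl Hk1 has no ratio, since IVA12-like cells had no UMI.

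Of the 15 mouse genes, 14 were tested and 12 differed between the lines, 10 lower and 2 higher in IVA12-like cells. Among all 8878 mouse genes tested 58.1% were called, 28.1% higher and 30.0% lower, so a call as such was common. The median log2 difference was −0.91 over the 14 genes tested and −0.03 over all genes tested. Of the 10 lower genes, 9 had a ratio in each library and were lower in both, and the other was Hk1. The test compares 4 sums of cells from 2 libraries of 1 mixture, with library as a term. Its p-values therefore measure how far the difference between the lines varied from library to library, estimated by sharing information across genes. They do not measure the spread between cultures. Without the library term the adjusted p was 0.00886 for Ldha and 5.24e-06 for Gpi1 (edgeR).

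A wider list of 11 pathway genes held 8 that could be tested, of which 5 differed, 1 higher and 4 lower in IVA12-like cells, a share near the 58.1% of all genes. Beside Eno3 and Slc2a3 these were the lactate and pyruvate transporter Slc16a1, at 138 and 179 CPM in EL4-like and 65.3 and 94.4 CPM in IVA12-like cells (log2 difference −0.997, adjusted p = 1.48e-09, edgeR). Pdk1, a kinase that restrains pyruvate dehydrogenase, was lower by a log2 difference of −0.79 (adjusted p = 0.000503, edgeR), with −0.31 at 150 and −0.90 at 300 cells per µl. Pfkfb3, which makes the activator of phosphofructokinase, was lower by −0.95 (adjusted p = 0.0202, edgeR), with −3.45 at 150, where IVA12-like cells held 1 UMI, and −0.58 at 300 cells per µl. The calls for Pdk1 and Pfkfb3 were lost with DESeq2 (adjusted p = 0.505 and 0.390) and without the library term (0.0699 and 0.0899). Slc16a3, Pfkm and Bpgm did not pass, and Aldoc, Eno2 and Hk3 were too low to test. In Jurkat-like cells SLC16A1 was the highest of the human forms of this list, at 109 and 135 CPM. SLC16A3 had 0 UMIs there, HK3 had no row, and SLC2A3 was at 3.24 and 8.30 CPM.

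**Figure D4:**
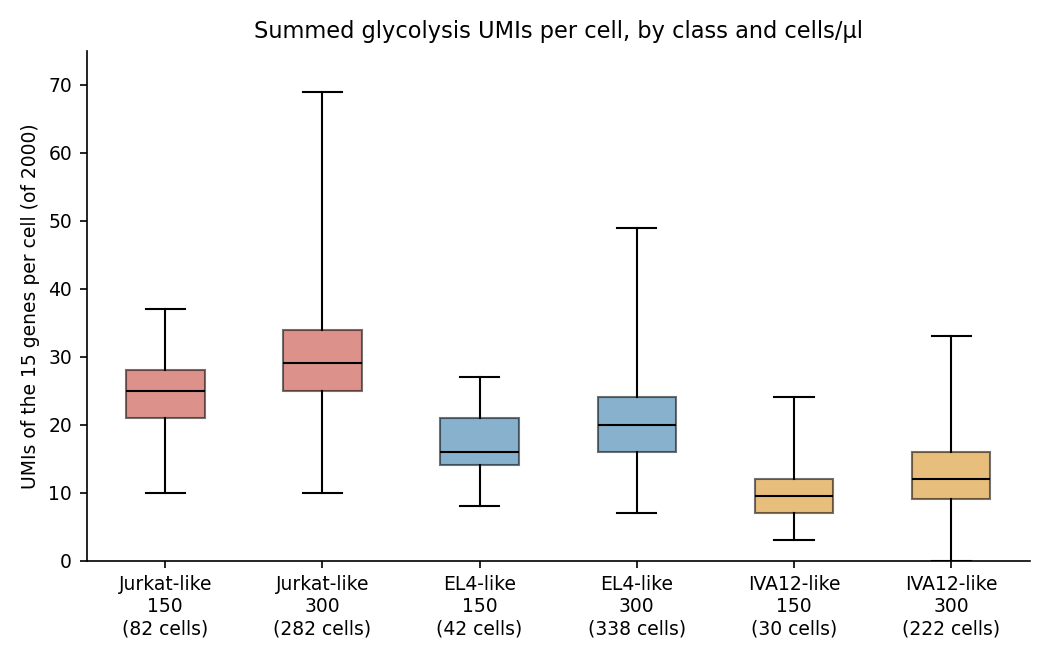
UMIs of the 15 genes per cell after thinning each cell to 2000 UMIs, by class and library. Boxes give the quartiles, lines in them the median, and whiskers the lowest and highest cell. The medians are 25 and 29 UMIs in Jurkat-like, 16 and 20 in EL4-like, and 9.5 and 12 in IVA12-like cells.

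Single cells showed the same order of the classes with wide overlap. Per 2000 UMIs, Jurkat-like cells held a median of 25 UMIs of the 15 genes (quartiles 21 and 28, 82 cells) and 29 (25 and 34, 282 cells). EL4-like cells held 16 (14 and 21, 42 cells) and 20 (16 and 24, 338 cells), and IVA12-like cells 9.5 (7 and 12, 30 cells) and 12 (9 and 16, 222 cells). The variance over the mean was 1.27 and 1.89 in Jurkat-like cells, 1.41 and 1.93 in EL4-like cells, and 2.59 and 2.33 in IVA12-like cells. Shallower cells, 0 to 36 per class and library, were left out.

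Most Jurkat-like cells held the abundant mRNAs of the lower steps at this depth. GAPDH was found in 100% (95.6 to 100) and 99.6% (98.0 to 100) of thinned Jurkat-like cells, LDHB in 100% and 97.5% and ENO1 in 93.9% and 98.6%. In mouse cells of the same libraries these human genes had UMIs in 0% to 2.78% of cells. HK1 was found in 8.54% and 6.74% of Jurkat-like cells, HK2 in 2.44% and 4.26%, and SLC2A1 in 3.66% and 1.77%, against 0 of 73 and 0 of 576 mouse cells. Thinning leaves few UMIs of these 3 genes. Without it HK1 was found in 28.7% (19.5 to 39.4) and 16.4% (12.5 to 20.9), HK2 in 6.90% (2.57 to 14.4) and 7.55% (4.90 to 11.02), and SLC2A1 in 10.3% (4.84 to 18.7) and 5.03% (2.90 to 8.04) of Jurkat-like cells. The mouse cells were deeper, with medians of 12164 and 7211 against 6383 and 3714 UMIs, and 0 of 85 and 0 of 685 of them had a UMI of these genes (up to 4.25% and 0.537%). The interval of HK2 at 150 cells per µl overlapped that background, and the other 5 lay above it.

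Between the concentrations, levels were compared within each class without a test, as each concentration had 1 library. Of the genes with at least 100 UMIs over both libraries (11 in Jurkat-like, 13 in EL4-like and 10 in IVA12-like cells), 0 were past 2-fold. Among all genes of that depth 1.77%, 3.76% and 4.85% were past 2-fold. The median log2 difference of 300 minus 150 cells per µl was 0.30, 0.30 and 0.27 over the glycolysis genes of that depth, and 0.08, 0.14 and 0.14 over all genes of that depth. TMM factors between the libraries lower every one of these differences by 0.12 to 0.13.

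**Figure D5:**
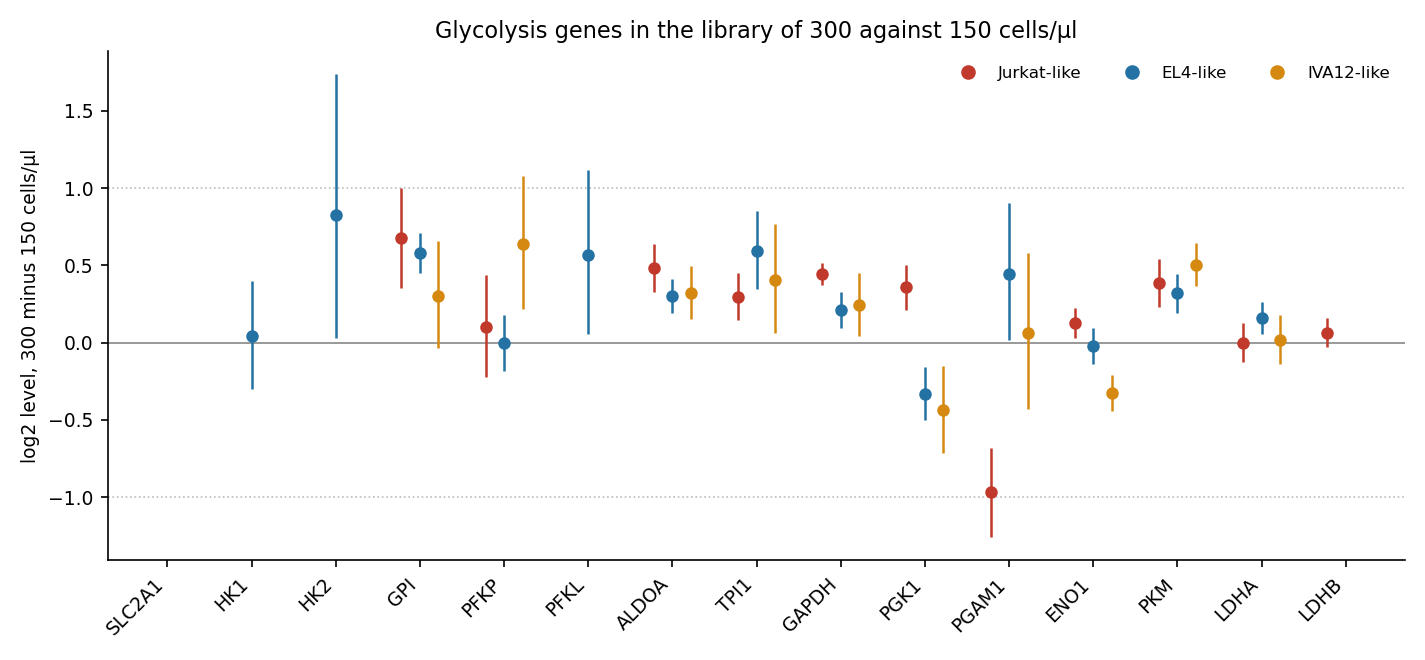
Log2 level at 300 minus 150 cells per µl for genes with at least 100 UMIs over both libraries, with 95% exact conditional binomial intervals, by class. Dotted lines mark 2-fold. PGAM1 in Jurkat-like cells lies at −0.97, and PGK1 lies at 0.36 in Jurkat-like but at −0.33 and −0.44 in EL4-like and IVA12-like cells.

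GAPDH, ALDOA, TPI1 and PKM were higher at 300 cells per µl in all 3 classes, with intervals above 0 and with the same direction under TMM. With TMM factors the intervals of Gapdh in EL4-like (−0.03 to 0.20) and IVA12-like cells (−0.09 to 0.32) and of Tpi1 in IVA12-like cells (−0.06 to 0.64) held 0. Their log2 differences were 0.21 to 0.44 for GAPDH, 0.30 to 0.48 for ALDOA, 0.30 to 0.59 for TPI1 and 0.32 to 0.50 for PKM. GPI was higher by 0.67 (0.36 to 1.00) in Jurkat-like cells and by 0.58 (0.45 to 0.71) in EL4-like cells, and differed by 0.30 (−0.04 to 0.66) in IVA12-like cells. LDHA stood at 1223 CPM in both libraries of Jurkat-like cells, with an interval of the log2 difference from −0.13 to 0.13 and a TMM value of −0.12. Median UMIs per cell were lower at 300 cells per µl in every class, and the share of UMIs of the other species was higher. The part of either in these differences was not tested.

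PGAM1 had the largest difference among the genes of that depth. It stood at 311 CPM (192 UMIs) and 159 CPM (211 UMIs) in Jurkat-like cells, a log2 difference of −0.97 (−1.26 to −0.68) that was −1.09 with TMM factors. The share of thinned cells with a PGAM1 UMI was 53.7% (42.3 to 64.7) at 150 and 29.4% (24.2 to 35.1) at 300 cells per µl. In EL4-like cells Pgam1 differed by 0.45 (0.02 to 0.90), in the other direction, or by 0.32 (−0.11 to 0.78) with TMM factors, and in IVA12-like cells by 0.06 (−0.43 to 0.58), which was −0.07 with TMM. Pgk1 was lower at 300 cells per µl in both mouse classes, by −0.33 (−0.50 to −0.16) and −0.44 (−0.72 to −0.15), while PGK1 was higher by 0.36 (0.21 to 0.50) in Jurkat-like cells.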

How the data were processed

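Each library came as 1 deposited table of whole UMI counts (gene by barcode), which the authors made with Drop-seq tools and STAR 2.4.2a on a joint reference of hg19 and mm10 (aligner and builds per the labels). Their methods describe reads downsampled to a common depth, and whether these counts came from the downsampled reads is not given in the sources used here. If they did, the total per library would be set in part by that step. The tables held 2000 barcodes and 2398956 UMIs at 150 cells per µl, and 4000 barcodes and 8707135 UMIs at 300 cells per µl. Genes carried Ensembl identifiers with a species prefix. Symbols were paired with them from hand-written lists, because the reference table at hand carried no Ensembl identifiers, and no sequences were printed for the same reason. The genes and lists were chosen with earlier results of these data known.

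Cells were clustered per species over both libraries (UMIs scaled to 10000 and log-transformed, genes seen in at least 10 cells, 2000 variable genes without the glycolysis and other pathway genes, 15 principal components, 15 neighbours, Leiden at resolution 0.5 with leidenalg 0.10.2 in Python 3.11.15) and named from marker lists. No doublet caller was run, and 1 IVA12-like cell had 10 or more UMIs of both T and B cell markers. All glycolysis genes of both species are described, by step of the pathway. Of the other pathway genes, those that passed the test are named by rule, and the rest were named after their values were seen.

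UMI counts were summed per class and library. The 4 mouse sums were tested with edgeR 4.0.16 in R 4.3.3 (quasi-likelihood, filterByExpr, TMM, library as a term, Benjamini-Hochberg over 8878 genes, threshold 0.05). DESeq2 1.42.0 was the alternative. On simulated counts for these 8878 genes in this comparison, edgeR recovered 73 of 100 genes changed 2-fold and 94 of 100 changed 4-fold with 3 false calls, and DESeq2 recovered 22 and 65 with 0. These counts were drawn with the common dispersion of the edgeR fit (0.00396) for every gene and with no difference between libraries. Only 200 genes were changed. The numbers therefore describe that setting and are not error rates of the real contrast. Levels are CPM with exact Poisson intervals, isoform shares have Clopper-Pearson intervals, and ratios between libraries have conditional binomial intervals, all at 95% and for counting error only. Shares of cells with a UMI were taken after thinning each cell to 2000 UMIs. The study's test over single cells takes cells as replicates and was not used.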

Additional observations from a re-analysis of the deposited data

Results flagged for a closer look

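For 3 genes the difference between 300 and 150 cells per µl lay on one side of 0 in Jurkat-like cells and on the other side in a mouse class, each with an interval that left out 0. For PGK1 the log2 difference was 0.36 in Jurkat-like cells, and it was lower by −0.69 in EL4-like and by −0.80 in IVA12-like cells. For PGAM1 it was −0.97 in Jurkat-like cells and 1.41 higher than that in EL4-like cells, where the interval with TMM factors held 0. For ENO1 it was 0.12 in Jurkat-like cells, a value that TMM factors bring to 0.00, and it differed by −0.45 in IVA12-like cells. With 1 library per concentration these differences between classes were not tested, and they compare a human with a mouse gene.

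The mouse genes of barcodes under 1000 UMIs entered no comparison above, other than an alternative that took barcodes of at least 500 UMIs. Mouse Hk2 was higher in the barcodes under 1000 UMIs than in the mouse cells of the same library. The level was 74.0 CPM (35 UMIs) against 18.9 CPM (20 UMIs) at 150 cells per µl, a log2 difference of 1.97 (1.14 to 2.84). At 300 cells per µl it was 57.0 CPM (73 UMIs) against 37.2 CPM (205 UMIs), a log2 difference of 0.62 (0.21 to 1.01). No other mouse or human gene of the list was higher there, with intervals above 0, in both libraries. Hk1 was higher at 150 cells per µl by 0.61 (0.10 to 1.12) and differed by 0.08 (−0.22 to 0.37) at 300. Human HK2 differed by 1.87 (0.07 to 3.72, on 7 and 6 UMIs) at 150 and by −0.72 (−3.10 to 1.00) at 300.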

How the results depend on the processing

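No glycolysis gene changed direction in the mouse line contrast under the 9 alternatives with a test, and the number of them called ranged from 8 (DESeq2) to 13 (DESeq2 size factors in edgeR) around 12. Of the 126 values under these, 111 kept direction and call, 12 lost the call and 3 gained it. All genes called numbered 1903 with DESeq2 against 5154, and other pathway genes called 3 with DESeq2 against 5. Without the library as replicate block, 10 glycolysis genes, 3 other pathway genes and 3522 of all genes were called. With 1 library left out no test could be run, and of the glycolysis genes only Pgam1 had opposite signs in the 2 libraries. The cause of these changes was not tested. With no filter on low counts the median log2 difference of all genes was 0.15 against −0.03.

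Summed levels moved outside their counting intervals to 0.638% with at least 2000 UMIs (IVA12-like, 300), and with cells weighted equally to 1.23% and 1.56% (Jurkat-like), 1.04% (EL4-like, 300), and 0.497% and 0.607% (IVA12-like). The order of the classes remained. All 72 isoform shares stayed within their intervals. With TMM factors or with 95% purity 1 gene, PGAM1, was past 2-fold between the concentrations in Jurkat-like cells, against 0. Without GAPDH the median cell held 0.875% and 1.0% in Jurkat-like, 0.7% and 0.85% in EL4-like, and 0.425% and 0.55% in IVA12-like cells. The genes found in at least 50% of cells numbered 5 in Jurkat-like cells at 150 and 3 in IVA12-like cells in both libraries after thinning to 1000 UMIs, and 10 in IVA12-like cells in both libraries without thinning, since such shares grow with depth. With 34 to 349 cells per class, hexokinases and SLC2A1 rest on few UMIs.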

Other observations

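The 2 unnamed clusters of mostly shallow mouse cells held the 15 genes at 0.723% (0.680 to 0.767, 52 cells) and 0.886% (0.810 to 0.967, 41 cells) of mouse UMIs at 300 cells per µl, between the IVA12-like and EL4-like shares. The first held more B than T cell markers (3175 against 1001 CPM) and the second more T than B cell markers (3012 against 668 CPM).

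Glycolysis genes of each species were also counted, in small amounts, in cells of the other. Human glycolysis genes made up 0.00394% and 0.0062% of the UMIs of mouse cells, against 1.25% and 1.46% in human cells. Mouse glycolysis genes made up 0.012% and 0.0241% of the UMIs of human cells, against 0.743% and 0.852% in mouse cells.

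Barcodes of at least 300 but under 1000 UMIs that were not mostly human numbered 1124 and 2755. In these, LDHA took 39.9% (34.4 to 45.7) and 37.6% (33.4 to 42.0) of human lactate dehydrogenase UMIs, and Hk1 took 67.2% (54.6 to 78.1) and 62.0% (54.7 to 68.9) of mouse Hk1 and Hk2 UMIs. Mouse Ldhb had 0 UMIs there beside 389 and 1184 of Ldha.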
